A study of Mus musculus with 16 samples.

Results

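Acetylation of histone H3 at lysine 9 (H3K9ac) was compared by ChIP-seq between jejunal epithelial cells of mice with a deletion of NCoR1 (KO) and of wild-type mice (WT), both C57BL/6 neonates at postnatal day 12. The labels give the genotypes as NCoR1 deletion KO and WT, and the protocol as DIECUN and F/FUN animals. Neither the suffix UN nor the Cre driver of the deletion is given, nor is the number of animals behind a library. The series holds 16 samples, 12 ChIP and 4 input libraries, over 6 histone marks. The regions described here are all those of the pair of deposited H3K9ac lists, 1883 where the KO library exceeded the WT library (KO-higher) and 2151 where the WT library exceeded the KO library (WT-higher), 4034 of the 23511 regions in the 10 distinct lists of the series. There was 1 H3K9ac library per genotype, so no difference could be set against the spread between replicates, no test was run, and each value describes these libraries only. Intervals are 95% and cover counting error only. They count each region as a separate draw, so they are too narrow where neighbouring regions of a locus go together. The KO library held 47976125 tags, of which 26868121 (56.0%) were left after duplicates were removed, and the WT library held 37745081, of which 24263055 (64.3%) were left.

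NCoR1 is a corepressor that unliganded nuclear receptors, such as the liver X receptor (LXR) for oxysterols and the peroxisome proliferator-activated receptors (PPARs) for fatty acids, use to bring histone deacetylase activity to their target genes. H3K9ac is a mark of active promoters and enhancers and is among the modifications that such deacetylases remove. In the jejunum the epithelium consists mainly of enterocytes, which absorb lipid, sugar and amino acids through a brush border of microvilli, and which change from a suckling to an adult set of genes around weaning.

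Both libraries' levels are given for each region. A level is a number of overlapping tags, on the scale of the smaller WT library, to which KO tags were scaled by 90.3%. The level of the genotype that names the list is the authors' pileup at the summit. The level of the other genotype is its local background around the summit, recovered from the authors' fold, and need not equal its tag height there. The lowest value of this background was 1.8 in both directions. Poisson p-values computed from both levels lay within 0.001 of the deposited ones on the -log10 scale at all 1883 KO-higher and 2151 WT-higher regions. Folds are the authors' own values.

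The sequences at strong summits of both directions are given as examples of their CpG content. Each run below is 200 bases of mm9 centred on a summit, plus strand, with CpG dinucleotides in capitals. The first set holds KO-higher regions, the Abca1, Hgd and Srebf1 promoters and an intron of Scd2 (chr4:53172188-53172387, chr16:37580999-37581198, chr11:60023689-60023888 and chr19:44370740-44370939). These were chosen because they are the strongest promoter regions and the strongest intron region of a lipid gene, Vil1 apart.
Abca1: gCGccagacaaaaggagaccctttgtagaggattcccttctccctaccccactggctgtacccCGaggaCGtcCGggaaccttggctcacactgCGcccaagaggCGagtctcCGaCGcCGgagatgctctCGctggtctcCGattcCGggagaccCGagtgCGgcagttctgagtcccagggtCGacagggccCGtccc
Hgd: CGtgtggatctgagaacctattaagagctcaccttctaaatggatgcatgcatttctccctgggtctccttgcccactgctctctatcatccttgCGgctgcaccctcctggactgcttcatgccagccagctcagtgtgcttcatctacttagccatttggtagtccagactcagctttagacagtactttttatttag
Srebf1: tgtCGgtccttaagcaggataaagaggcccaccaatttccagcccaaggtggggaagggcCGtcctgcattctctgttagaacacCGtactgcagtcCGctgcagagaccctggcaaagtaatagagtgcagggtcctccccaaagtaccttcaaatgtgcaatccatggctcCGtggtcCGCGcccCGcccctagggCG
Scd2: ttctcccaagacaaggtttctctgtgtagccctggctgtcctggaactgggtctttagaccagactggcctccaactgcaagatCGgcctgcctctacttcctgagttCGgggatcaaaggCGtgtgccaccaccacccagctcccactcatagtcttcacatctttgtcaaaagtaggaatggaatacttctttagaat
The second set holds WT-higher regions, the Bzw1, Agbl4 and Igf2 promoters and a region between genes upstream of Slc19a2 (chr1:58449685-58449884, chr4:110070342-110070541, chr7:149846550-149846749 and chr1:166154588-166154787). These are among the strongest in that direction.
Bzw1: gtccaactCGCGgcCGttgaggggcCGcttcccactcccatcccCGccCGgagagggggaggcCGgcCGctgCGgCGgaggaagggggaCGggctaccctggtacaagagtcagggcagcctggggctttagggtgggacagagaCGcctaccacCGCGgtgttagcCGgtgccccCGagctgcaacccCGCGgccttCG
Agbl4: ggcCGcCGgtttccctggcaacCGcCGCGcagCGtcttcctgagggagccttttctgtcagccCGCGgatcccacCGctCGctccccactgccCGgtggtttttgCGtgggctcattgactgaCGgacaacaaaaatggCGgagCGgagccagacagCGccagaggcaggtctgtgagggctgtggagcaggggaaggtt
Igf2: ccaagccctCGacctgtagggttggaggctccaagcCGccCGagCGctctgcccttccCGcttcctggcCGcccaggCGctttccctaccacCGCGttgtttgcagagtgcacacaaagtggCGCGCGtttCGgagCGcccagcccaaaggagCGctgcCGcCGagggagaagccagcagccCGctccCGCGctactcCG
Slc19a2: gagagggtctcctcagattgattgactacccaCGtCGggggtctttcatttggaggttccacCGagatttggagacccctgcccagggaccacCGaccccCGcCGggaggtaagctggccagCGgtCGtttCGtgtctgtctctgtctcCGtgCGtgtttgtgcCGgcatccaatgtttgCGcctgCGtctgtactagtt
Hgd held 2 CpG, Scd2 3, Srebf1 9 and Abca1 16. The WT-higher summits of Slc19a2, Agbl4, Bzw1 and Igf2 held 14, 16, 19 and 21. Abca1 thus had as many CpG as Agbl4, and the other KO-higher summits had fewer than any of the WT-higher ones. Repeated sequence was not annotated. Whether these runs, those of Scd2 and Slc19a2 among them, have copies elsewhere in the genome was not tested.

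KO-higher regions made up 46.7% of the H3K9ac regions (Wilson interval 45.1 to 48.2). The KO-higher regions had the higher -log10 p, a value that rises with tag height as well as with fold. Their median was 10.6 (10.3 to 10.9), against 7.86 (7.78 to 8.01) for WT-higher regions. A -log10 q of at least 20 was held by 47 KO-higher regions, against 4 WT-higher ones. A fold of at least 4 was held by 21.6% of KO-higher and 22.7% of WT-higher regions. When only q values of 1e-05 or below were kept, the majority turned, and 65.2% of regions were KO-higher. Median folds lay close together, at 2.91 (2.85 to 2.99) for KO-higher and 2.80 (2.75 to 2.87) for WT-higher regions, and so did median widths, at 166 bp (163 to 168) and 171 bp (168 to 174). The summits differed in height. Median pileup was 53.3 scaled tags (50.6 to 54.2) at KO-higher summits in the KO library, against 37 (34 to 39) at WT-higher summits in the WT library. Regions over 500 bp were rare, 31 KO-higher (1.65%) and 30 WT-higher (1.39%). The authors' q cutoff of 0.05 ended both lists: the weakest KO-higher region, near Npas2, had a -log10 q of 1.32 and the weakest WT-higher region, near Gas6, 1.30.

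**Figure D1:**
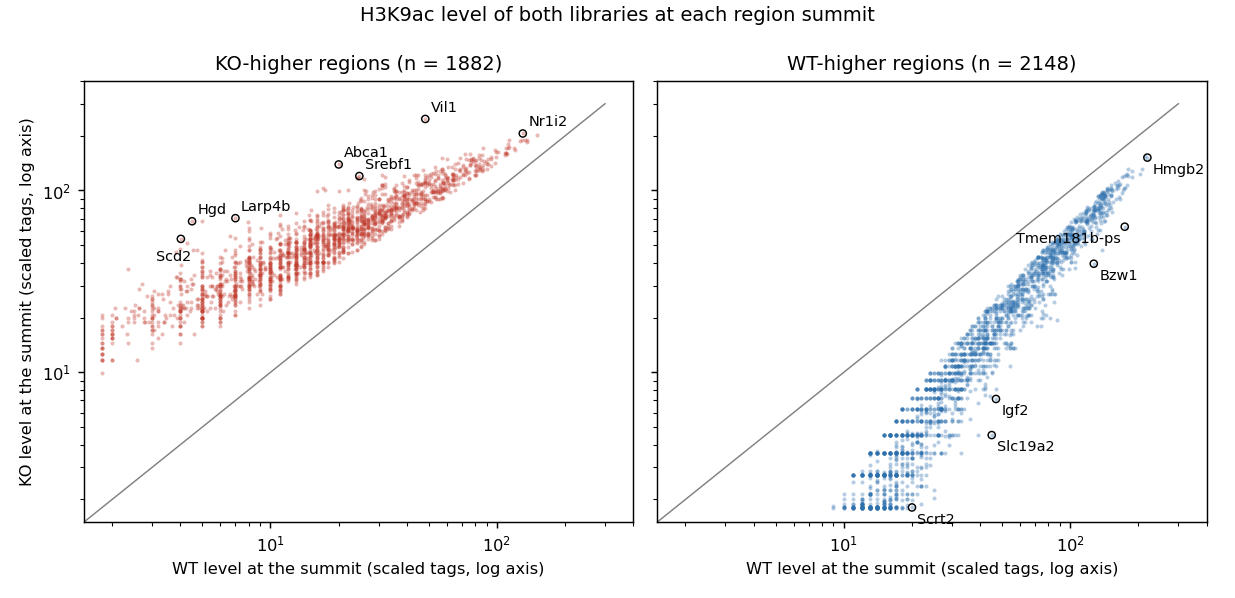
H3K9ac level in the KO library (vertical, scaled tags, log axis) against that in the WT library (horizontal, scaled tags, log axis) for every placed region. KO-higher regions are on the left and WT-higher regions on the right. The library that names the list is shown by its summit pileup and the other by its local background. The line marks equal levels and circles mark named summits. The Vil1, Abca1, Hgd, Scd2 and Larp4b summits stand above the bulk of KO-higher regions, and the Igf2 and Slc19a2 summits below the bulk of WT-higher ones. The gap between libraries narrows towards high levels in both directions, which the q cutoff partly fixes.

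The directions lay in different places. KO-higher regions were mainly in introns (51.9%, 49.7 to 54.2) and between genes (26.6%, 24.6 to 28.6), and 15.3% (13.7 to 17) had their summit within 1 kb of a transcription start, here called a promoter. Of WT-higher regions, 47.0% (44.9 to 49.1) were at promoters, 23.9% (22.2 to 25.8) in introns and 23.0% (21.3 to 24.8) between genes. Promoter shares were smaller among regions with a fold of 4 or more, at 6.39% of KO-higher and 12.7% of WT-higher regions. Promoter regions had higher median pileups (89.4 KO-higher, 62 WT-higher) than intron regions (50.6 and 21), and the q cutoff lets lower folds pass at high levels. Where GC content was limited to the range between both medians, 16.5% of KO-higher and 26.5% of WT-higher regions were at promoters. Exons outside promoters held 6.22% of KO-higher and 6.10% of WT-higher regions. The stretch 1 to 10 kb downstream of a start held 30.6% (28.5 to 32.7) of KO-higher regions, against 11.2% (9.91 to 12.6) of WT-higher regions. Even among promoter regions the position differed: 24.7% (20 to 29.9) of the 288 KO-higher ones lay 600 to 1000 bp downstream of the start, against 4.86% (3.69 to 6.36) of the 1009 WT-higher ones. The first 400 bp after the start held 31.9% (26.8 to 37.5) of the KO-higher and 59.9% (56.8 to 62.8) of the WT-higher promoter regions.

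**Figure D2:**
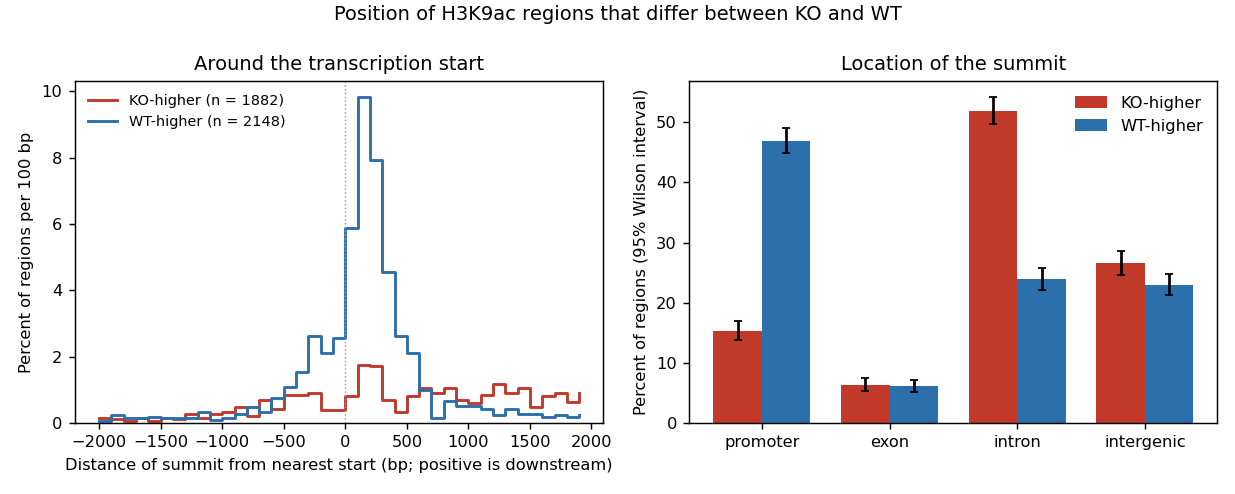
Left, percent of regions per 100 bp by distance of the summit from the nearest transcription start (bp, positive downstream), for KO-higher and WT-higher regions; right, percent of regions by location, with 95% Wilson intervals as error bars. WT-higher regions pile up just downstream of the start and make up 47.0% promoter regions, whereas KO-higher regions spread into gene bodies, with 51.9% in introns.

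Base composition followed the same division. Median GC content was 54.7% (54.4 to 54.9) in KO-higher and 61.6% (61.2 to 62) in WT-higher regions. In windows of 300 bp on the summit, promoter regions held a median of 7 CpG when KO-higher and 23 when WT-higher, beside 15 in the first 300 bp of all 21825 protein-coding genes on the chromosomes used. Regions away from promoters held 4 when KO-higher and 8 when WT-higher. The GC box (GGGCGG, both strands), the binding element of SP family factors, was present in 8.24% (7.08 to 9.56) of KO-higher and 36.2% (34.2 to 38.2) of WT-higher windows, and in 6.30% and 6.08% of windows 2 kb to either side of them. At promoters it was present in 19.1% (15 to 24.0) of KO-higher and 51.3% (48.3 to 54.4) of WT-higher windows, beside 37.6% in the first 300 bp of all genes. The GC box contains a CpG, so its share is not independent of the CpG count.

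Letters of nuclear receptor and intestinal factor elements, searched on both strands, were no more frequent at KO-higher summits than beside them. The nuclear receptor half-site AGGTCA was present in 19.6% (17.8 to 21.4) of KO-higher windows and 20% of their flanks, against 14.8% (13.3 to 16.3) of WT-higher windows and 17.8% of their flanks, beside 13.6% of all genes' first 300 bp. Direct repeats of AGGTCA spaced by 1 or 4 bases, the classical PPAR and LXR elements, were found without a mismatch in 0 of 1882 KO-higher windows (Wilson interval up to 0.204%) and 0 of 2148 WT-higher windows (up to 0.179%). The GATA element AGATAA was present in 9.99% (8.72 to 11.4) of KO-higher windows and 15.9% of their flanks, against 5.49% (4.61 to 6.54) of WT-higher windows and 14.5% of their flanks, beside 7.59% of all genes. The CDX element TTTATNG gave 8.02% (6.88 to 9.34) of KO-higher windows and 14.5% of their flanks, against 5.45% (4.56 to 6.49) of WT-higher windows and 14.2% of their flanks, beside 5.77% of all genes. Summits of acetylation in either direction thus held fewer of these AT-rich letters than the sequence beside them. The AP-1 element TGANTCA (8.13% of KO-higher and 5.40% of WT-higher windows), the CCAAT box (28.9% and 20.7%) and the E-box CACGTG (4.84% and 5.21%) had flank shares of 9.46%, 32.7% and 4.49% for KO-higher and 8.31%, 33.3% and 4.26% for WT-higher regions, and shares of 4.38%, 24.3% and 4.72% of all genes. The HNF4 core CAAAGTCCA (0.478% of KO-higher and 0.419% of WT-higher windows), ETS CCGGAAGT (0.638% and 0.605%), CRE TGACGTCA (0.159% and 0.559%), NRF1 (0.0531% and 0.14%) and HNF1 elements (in no window of either direction) were rare. A match or its absence says nothing of whether a factor was bound.

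Of the 21825 protein-coding genes, 868 (3.98%) had at least 1 KO-higher region whose nearest start within 50 kb was theirs, and 1639 (7.51%) had at least 1 WT-higher region. The nearest start names a region and does not show which gene it acts on. KO-higher regions gathered at fewer genes in the full lists. At a -log10 q of 5 or more the order turned, with 596 KO-higher and 510 WT-higher genes. There were 1.99 KO-higher regions per gene with any, against 1.16 WT-higher ones, and 169 genes (19.5%) had 3 or more KO-higher regions, against 44 (2.68%) with 3 or more WT-higher ones. When regions of a direction within 50 kb of each other were joined, 87 stretches held 5 or more KO-higher regions and 7 held 5 or more WT-higher ones. These stretches held 38.2% of KO-higher and 3.07% of WT-higher regions. The gene with the most KO-higher regions was Vegfa, the vascular endothelial growth factor, with 26 regions between 1656 and 37500 bp downstream of its start, 11 in introns and 14 beyond the gene, and none at the promoter. Their KO levels were 43.3 to 174 scaled tags, against 14 to 113 in WT, and their folds 1.54 to 3.98. Adipor2, an adiponectin receptor, and Srebf1, the transcription factor SREBP1 of fatty acid synthesis, had 16 each. Eps8, an actin-capping protein of microvilli, had 15, all in introns, with folds of 2.09 to 6.06. Abcg8, one of the pair of transporters that return sterols to the gut lumen, had 13. With Efna1 (13), Muc13 (12), Nr1i2 (11), Fam108c (11) and Apob (11) these were the 10 genes with the most KO-higher regions.

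**Figure D3:**
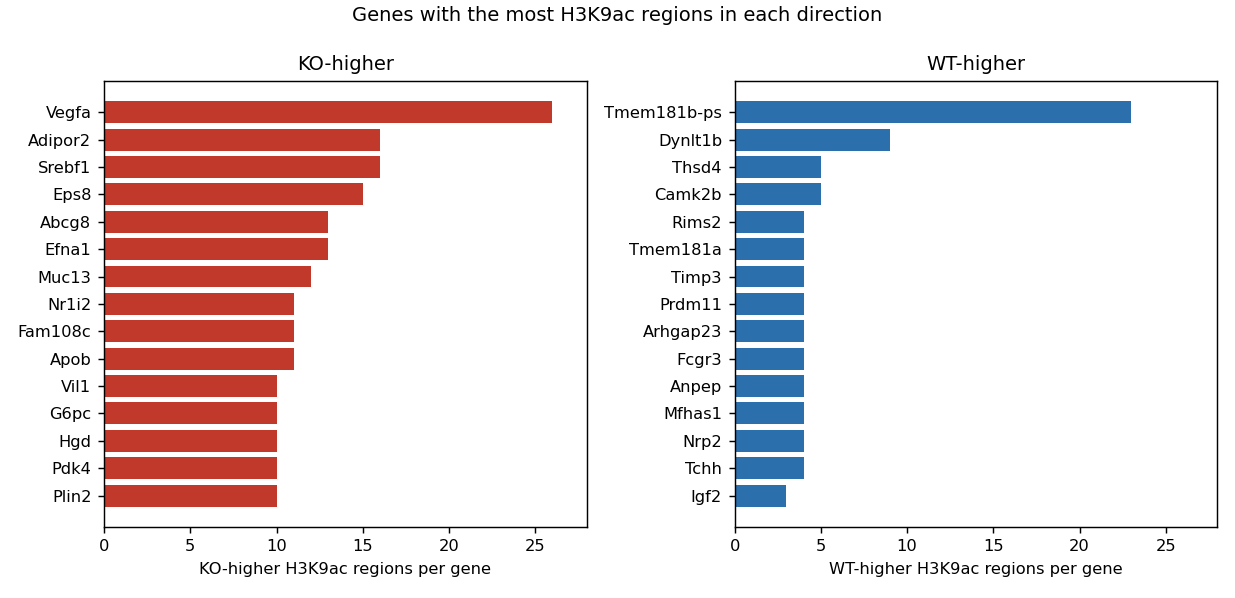
Number of H3K9ac regions assigned to each of the 15 genes with the most regions, KO-higher on the left and WT-higher on the right, on the same horizontal scale (regions per gene). The 15 genes on the left have 10 to 26 KO-higher regions, whereas Tmem181b-ps and Dynlt1b, which lie together on chromosome 17, are the only genes with more than 5 WT-higher regions.

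A pair of stretches stood apart because active and repressive marks differed there in 1 direction. Around Vil1, the gene of the microvillus protein villin, 10 KO-higher H3K9ac regions lay together (chr1:74448696-74461177). The widest of all H3K9ac regions, 5431 bp over the Vil1 promoter, had a level of 247 scaled tags in KO, against 48.2 in WT (fold 5.05). The same stretch held KO-higher regions of H3K27ac, of H3K4me3 with folds up to 50.9, and of the repressive mark H3K9me3 with folds up to 71.0. The 10 KO-higher H3K9ac regions that met a KO-higher H3K9me3 region were these 10. On chromosome 17, 37 WT-higher H3K9ac regions lay around Dynlt1b, Tmem181a and Tmem181b-ps (chr17:6256634-6508544), where H3K27ac, H3K4me3, H3K4me1, H3K9me3 and H3K27me3 were WT-higher too. The region over the Tmem181b-ps start had 63.2 scaled tags in KO and 174 in WT. What lies behind the shared direction of the marks in these stretches was not tested. Without them the KO-higher share of regions was 47.0%, and none of the 13 summary values left its interval or, for counts of genes, moved by over 1.5 times.

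The other strongest KO-higher regions, by -log10 p or by fold, lay at genes of varied roles. The promoter of Abca1, the exporter of cellular cholesterol (chr4:53171538-53172795), had 139 scaled tags in KO, against 20 in WT (fold 6.67). Hgd, an enzyme of tyrosine breakdown, had the highest fold of the list, 12.5, downstream of its start (chr16:37580351-37581236), with 67.7 in KO, against 4.51 in WT. The Srebf1 promoter (chr11:60023582-60023917) had 120 in KO, against 24.7 in WT (fold 4.72). Hgd and Srebf1 had 10 and 16 KO-higher regions in all, and Abca1 4. An intron of Scd2, a fatty acid desaturase, had 54.2 in KO, against 4.02 in WT (fold 11). An intron of Larp4b, an RNA-binding protein (chr13:9112754-9112998), had 70.4 in KO, against 7 in WT (fold 8.93). An intron of Cyp3a25, a cytochrome P450, had 47.9 in KO, against 4 in WT (fold 9.77). The WT levels of these introns, 4 to 7 scaled tags, lay below the median WT level of 17 over KO-higher regions. A region with a fold of 11.4 lay in an exon of Ifit2, an interferon-induced gene (37.0 in KO, 2.34 in WT); the nearest start was that of its neighbour Ifit3, to which it is counted here. Sprr2a2, of the small proline-rich proteins, had 47.0 in KO, against 4.55 in WT (fold 8.65), and a region near the MHC-like gene Gm11127 had 51.5, against 4.30 (fold 9.91). Sprr2a and Cyp3a genes have near-identical copies side by side, so the gene to which their tags belong is uncertain.

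The regions with the highest levels had low folds, Vil1 apart. The q cutoff lets lower folds pass at high levels than at low ones, so the lists partly fix this relation in both directions. After Vil1, the KO-higher summits with the highest pileup were the promoter of Nr1i2, which encodes the xenobiotic receptor PXR (206 in KO, 130 in WT), Ubb, a ubiquitin gene (203 and 150), an exon of Creb3l3, a transcription factor of lipid handling (191 and 129), and the promoter of Pdk4, the kinase that restrains glucose oxidation (191 and 133). Their folds were 1.35 to 1.58. At Nr1i2 and Pdk4 the folds were higher away from the start, up to 4.78 and 7.03. At both genes the promoter region with the highest level had the lowest fold of the gene's regions, 1.58 and 1.43.

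**Figure D4:**
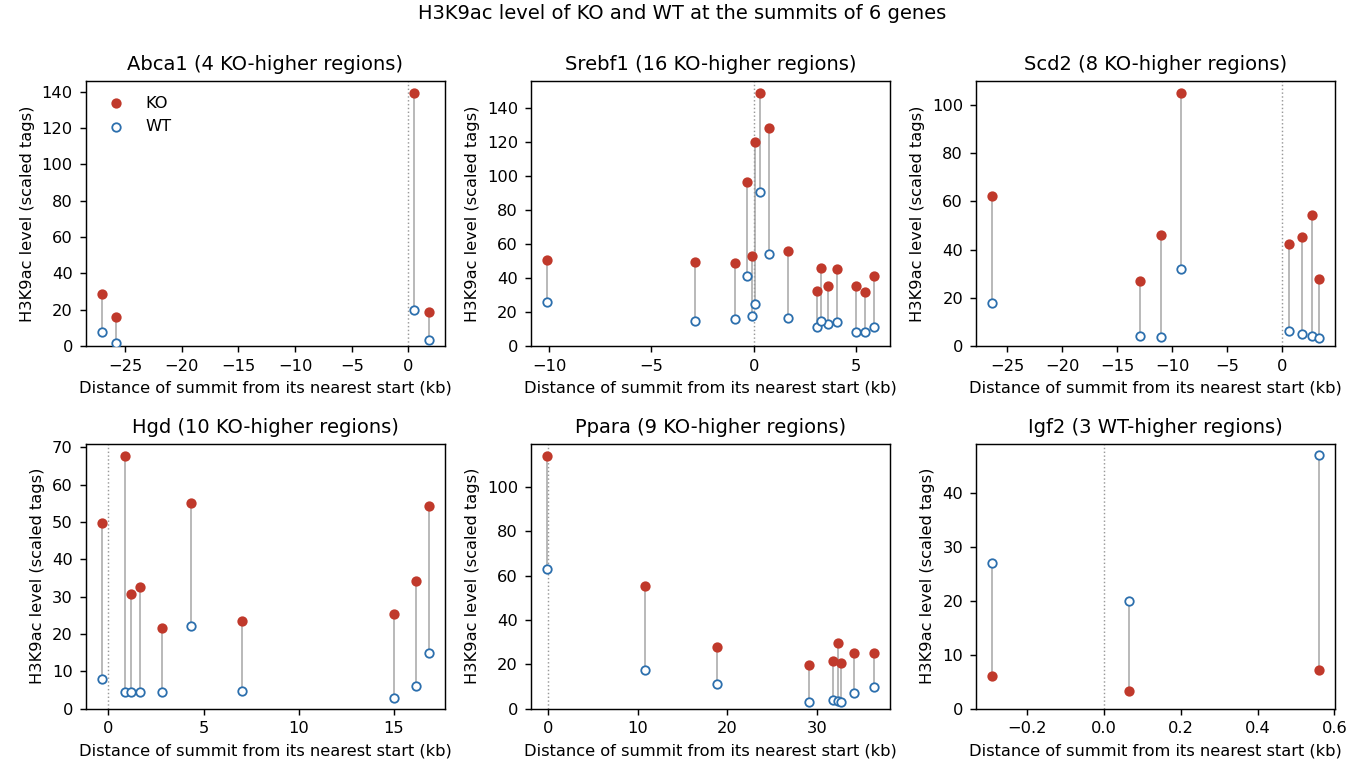
H3K9ac level (vertical, scaled tags) in KO (filled points) and WT (open points) at each region of 6 genes. Regions are placed by distance of the summit from the nearest start in kb (negative is upstream), with a line joining the libraries. The library that names the list is shown by its summit pileup and the other by its local background. At Abca1, Srebf1, Scd2, Hgd and Ppara the KO point lies above the WT point at each of the 4 to 16 regions, and at Igf2 below it at all 3, which the lists fix.

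Of 19 LXR targets and genes of sterol handling, 10 had KO-higher regions (52.6%, against 3.98% of all genes) and 0 had WT-higher ones (7.51% of all genes). Their median highest fold was 5.18. Besides Abca1, Srebf1 and Scd2 they included Abcg1, a sterol exporter, with 2 regions in introns and 47.0 in KO, against 4.71 in WT, at the stronger (fold 8.39). Abcg8 had 13 regions, with 62.3 in KO, against 9.07 in WT, at the highest fold of 6.29, and its partner Abcg5 had 8, with 84.9, against 24.4 (3.38). The desaturase Scd1 had 21.7 in KO, against 3.19 in WT (5.41). Lpcat3, which remodels phospholipids, had 39.7 in KO, against 7.22 in WT (4.95). Lower folds were those of the cholesterol uptake transporter Npc1l1 (2.46) and the elongase Elovl5 (1.81). Abca1 had 4 regions, of which 2 were intergenic with summits at -25820 and -27055 bp (negative is upstream). Their levels were 16.3 and 28.9 in KO, against 1.8 and 8 in WT. The 1.8 is the lowest WT level over all KO-higher regions. The Scd genes are similar in sequence, so tags could be split between them.

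The Scd2 neighbourhood was the one place where KO-higher H3K9ac met a repressive mark that was higher in WT. Of all 1882 placed KO-higher regions, 5 overlapped a WT-higher H3K27me3 region, 4 of them counted to Scd2 and 1 to its neighbour Scd3. At the Scd2 promoter (chr19:44367841-44368903) H3K9ac was 42.4 scaled tags in KO, against 6.10 in WT (fold 6.12). In the 3 further overlapping Scd2 regions the KO levels were 28 to 62.3, against 3.52 to 18 in WT. H3K27me3 is deposited by Polycomb complexes and marks silent genes.

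Among 28 nuclear receptors, 7 had KO-higher regions (25%), and 1, the retinoic acid receptor Rarg, had a WT-higher region (3.57%; 10.8 in KO and 32 in WT, fold 2.79). Ppara, the receptor that switches on fatty acid oxidation, had 9, of which 8 were in introns. The promoter of Ppara had 114 in KO, against 63 in WT (fold 1.79), and the intron region with the highest fold, 6.69, had 29.8, against 3.60. Hnf4g, a receptor of the enterocyte program, had a fold of 6.49, the thyroid hormone receptor genes Thrb and Thra 6.35 and 2.62, Nr1h4, which encodes the bile acid receptor FXR, 5.10, Nr1i2 4.78, and Nr1d1, a clock gene, 1.99.

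PPAR targets and genes of fatty acid oxidation had KO-higher regions at 14 of 27 members (51.9%) and a WT-higher region at 1, Acsl5 (3.70%). The highest folds were those of Pdk4 (7.03; 62.3 in KO, 8 in WT), the lipid droplet coat Plin2 (6.04; 35.2 and 5) and the mitochondrial dehydrogenase Acadl (5.44; 20.8 and 3). Acaa1a and Acaa1b, peroxisomal thiolases, had 1.85 and 1.90, and Cpt1a, the carrier step of mitochondrial oxidation, 2.31. Acsl5, which activates fatty acids, went the other way at a promoter with high levels in both libraries, 124 in KO and 204 in WT (fold 1.64).

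Fat absorption genes had KO-higher regions at 9 of 19 members (47.4%) and WT-higher ones at 0. Apob, the chylomicron scaffold, had 11 regions with folds of 2.71 to 5.89, Mttp, which loads it with lipid, 6 with a highest fold of 4.37, and Fabp1, a fatty acid binding protein, 5 with 3.09. Brush border and maturation genes had KO-higher regions at 11 of 21 (52.4%) and WT-higher ones at 1 (4.76%). Beside Vil1 the highest folds were at Pls1, an actin bundler (7.05; 26.2 in KO, 2.86 in WT), and Eps8. The 1 WT-higher member was Anpep, a brush border peptidase, with 4 regions of fold 1.69 to 2.64 and levels of 17.2 to 54.2 in KO, against 47 to 92 in WT. Enterocyte transcription factors had KO-higher regions at 8 of 19 (42.1%) and WT-higher ones at 0, led by Grhl2 (6.94), Hnf4g (6.49) and Maf (4.55).

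Genes of the adult enterocyte had KO-higher regions at 7 of 16 members (43.8%) and WT-higher ones at 0; high folds were at the disaccharidase Mgam (4.17) and the glucose transporter Slc5a1 (3.40). Suckling genes had KO-higher regions at 4 of 18 (22.2%), among them lactase, Lct (3.24), and Prdm1, a repressor of the adult set (2.67), and WT-higher ones at 2 (11.1%), Lrp2 (5.21) and Nox4 (2.95). Nutrient and ion transporters had KO-higher regions at 8 of 22 (36.4%) and WT-higher ones at 0, led by the sodium-proton exchanger Slc9a3 (4.80), the iron exporter Slc40a1 (4.73) and the phosphate transporter Slc34a2 (3.47). Xenobiotic metabolism had KO-higher regions at 12 of 46 (26.1%), led by Cyp3a25 (9.77), the conjugate exporter Abcc2 (7.58; 66.8 in KO, 7.94 in WT) and Nfe2l2, the antioxidant regulator (6.65), and WT-higher ones at 2 (4.35%), Ces2e (4) and Abcc3 (3.82).

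Smaller counts were found in other lists with KO-higher regions. Retinoid, vitamin D and thyroid targets had 5 of 19 (26.3%), led by Rdh7 (4.61), Dhrs3 (4.28) and S100g (3.87), and 2 WT-higher members (10.53%), Thrsp (4.52) and Lrat (3.30). Interferon, MHC and inflammation genes had 6 of 28 (21.4%), led by Ifit3 as counted here (11.4), the inflammation inhibitor Tnfaip3 (5.47) and the chemokine Ccl25 (3.54), and 0 WT-higher members. Circadian and stress regulators had 4 of 19 (21.1%), led by Jun (2.57), Fos (2.43) and Klf6 (2.33), and 1 WT-higher member, Dusp1 (5.26%; fold 5.92). FXR targets and bile acid transport had 1 of 10, Nr1h4 itself, and 2 WT-higher members, Fabp6 (2.88) and Fgf15, the gut hormone that restrains bile acid synthesis (3 promoter regions, 22.6 to 27.7 in KO and 54 to 73 in WT).

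**Figure D5:**
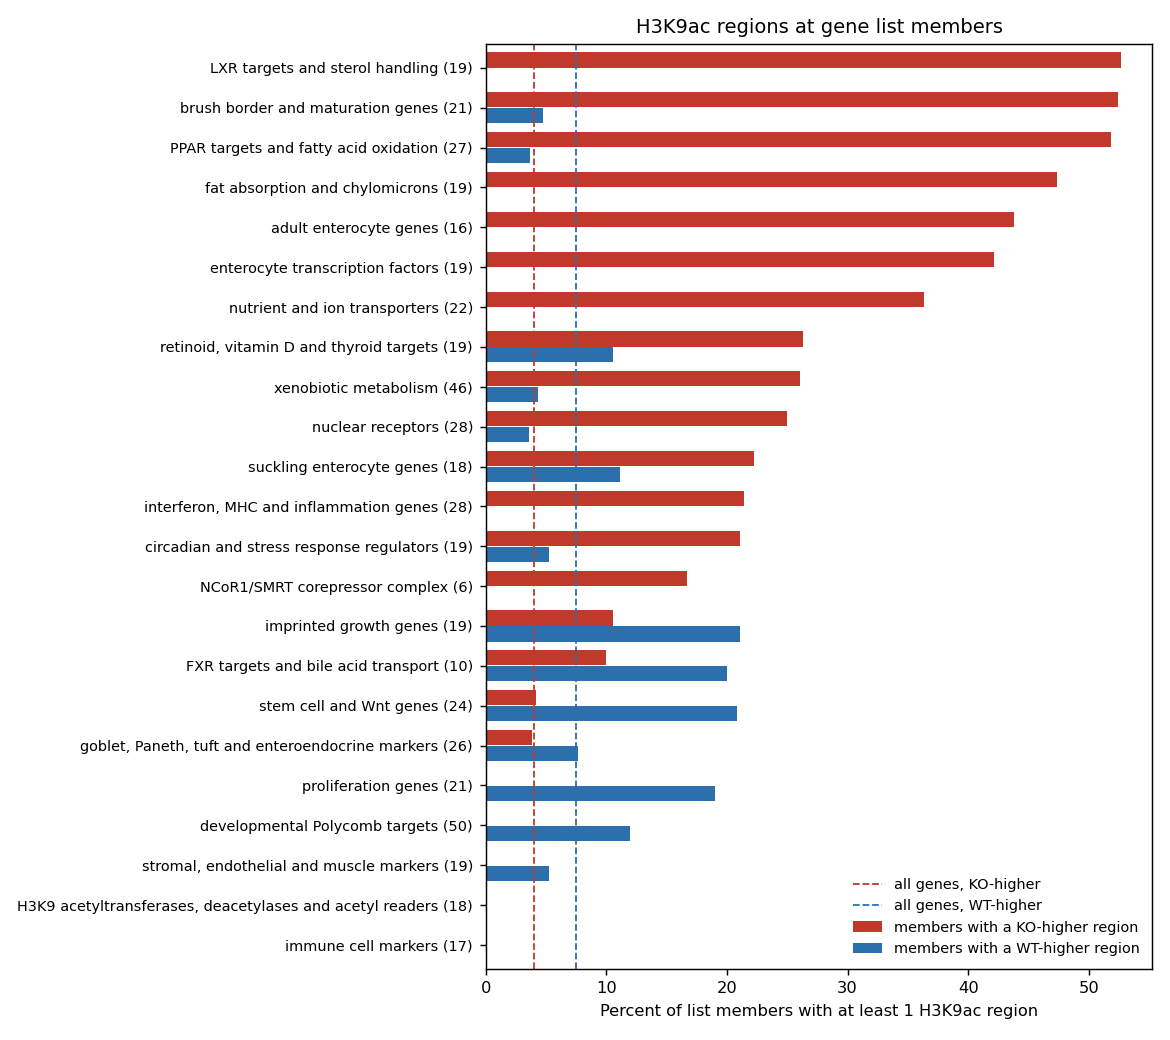
Percent of the members of 23 gene lists with at least 1 KO-higher region (upper bar of each pair) and at least 1 WT-higher region (lower bar), with the number of members in brackets; dashed lines give the same percent over all 21825 genes, 3.98 and 7.51. KO-higher bars pass 40% for 6 lists of lipid, brush border and enterocyte genes, whereas no WT-higher bar passes 22%.

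Proliferation, stem cell and imprinted growth genes had more WT-higher than KO-higher members, each at low counts. Proliferation genes had KO-higher regions at 0 of 21 members and WT-higher ones at 4 (19.05%, against 7.51% of all genes): the replication helicase subunit Mcm5 (4.58) and the cyclins Ccnb2 (1.98; 46.1 in KO, 92 in WT), Ccna2 (1.83) and Ccnd2 (1.64). Stem cell and Wnt genes had a KO-higher region at 1 of 24, Rnf43 (3.29), and WT-higher ones at 5 (20.8%), Cdk6 (3.47), Ephb2 (3.16), Sox9 (2.56; 21.7 in KO, 57 in WT), Axin2 (1.93) and Notch1 (1.72). Imprinted growth genes had KO-higher regions at 2 of 19 (10.53%), Gnas (2.96) and Dio3 (2.16), and WT-higher ones at 4 (21.1%). Of these Igf2, the fetal growth factor, had 3 promoter regions, with 6.13, 3.38 and 7.14 in KO, against 27, 20 and 47 in WT (folds 3.93, 4.79 and 5.90), and Grb10, a restrainer of insulin signalling, had 9.03 in KO, against 35 in WT (3.59). Developmental Polycomb targets had KO-higher regions at 0 of 50 and WT-higher ones at 6 (12%, near the 7.51% of all genes), with the highest folds at Hoxc4 (6.07), Barx1 (3.99) and Irx3 (3.66), which lay 27207, 9560 and -35418 bp from their starts.

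The strongest WT-higher regions by -log10 p were mostly at promoters. The promoter of Bzw1, a translation regulator (chr1:58449376-58449866), had 39.6 in KO, against 127 in WT (fold 3.16). The promoter of Agbl4, a carboxypeptidase of tubulin, had 4.52 in KO, against 39 in WT (7.25), and that of its neighbour Bend5 20.8, against 78 (3.63). Synj2, a phosphoinositide phosphatase, had 19.9 in KO, against 81 in WT (3.93), and the kinase Prkd3 18.1, against 74 (3.93). These 5 promoter summits held 6.67 to 11.3 CpG per 100 bp, beside a median of 7.67 over all WT-higher promoter regions, which lies within that range. Upstream of the thiamine transporter Slc19a2 a region between genes had 4.52 in KO, against 45 in WT (8.34). Whether its sequence has copies elsewhere in the genome was not tested, so the place of its tags is uncertain. The highest WT-higher fold, 8.55, was in an exon of 2010111I01Rik (chr13:63257892-63258068), -116581 bp from the nearest start, with 2.04 in KO and 25 in WT. Of the 10 highest folds, 7 lay in introns or exons with WT levels of 19 to 33, among them Rarres1 (7.99), Foxc1 (7.37, in an intron of Gmds), Fam125b (7.10) and Podxl (7.03), and Scrt2, a transcriptional repressor of neural cells, was at a promoter (7.48). The highest WT pileups were at promoters with low folds, Hmgb2, a chromatin protein of dividing cells (152 in KO, 219 in WT), Nfyc (154 and 214), Napa (132 and 207), Acsl5 and Pldn (118 and 188). The widest were at Gulp1 (958 bp), Kcnh1 (845 bp), Clstn1 (824 bp), Tmem181b-ps (760 bp) and Gadd45g (681 bp). Thsd4 and Camk2b, with 5 regions each, led the WT-higher counts after the chromosome 17 stretch.

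Regions of both directions were assigned to 38 genes, 4.38% of genes with KO-higher and 2.32% of genes with WT-higher regions. Over all genes, 7.51% had a WT-higher and 3.98% a KO-higher region, so both shares lay below those of all genes. Taking the region of highest fold in each direction, the WT-higher one was at the promoter and the KO-higher one was not at 13 of them, and the reverse held at 4. Vegfa had a WT-higher region at -27066 bp (fold 3.69). Dlg5 (KO-higher 4.09, WT-higher 3.41), Ywhah (3.40 and 4), Bzw1 (4.98 and 3.16) and Zmiz1 (3.11 and 3.10) followed by the lower of both folds. At Bzw1 the KO-higher region lay at -26420 bp, and the WT-higher one at the promoter.

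The cell labels were read against defining markers. Of 8 enterocyte markers, 6 had KO-higher regions (Vil1, Krt20, Alpi, Fabp1, Cdh17 and Lct), as did 3 of 4 epithelial markers (Epcam, Cdh1 and Krt8), and none of these 12 had a WT-higher region. Vil1 lies in the stretch where active and repressive marks were all KO-higher. The brush border gene Anpep, which had 4 WT-higher regions, was not among the markers. Of 32 markers of goblet, Paneth, enteroendocrine, tuft, immune, stromal, endothelial and muscle cells, 1 had a KO-higher region (Chga, 2.18) and 1 a WT-higher region (Cck, 4.16). In the wider lists, KO-higher regions lay at 1 of 26 secretory, 0 of 17 immune and 0 of 19 stromal, endothelial and muscle genes. WT-higher regions lay at 2 secretory genes (Zg16 with a fold of 5, and Cck), 0 immune genes and 1 of the others (Gli1, fold 3.39). The Zg16 region had 1.8 in KO, the lowest background value, and 13 in WT. Fcgr3, an Fc receptor gene outside these lists, had 4 WT-higher regions. Over all genes the shares were 3.98% KO-higher and 7.51% WT-higher. Each of these lists of other cell types is too short to tell its counts from those shares. A difference list does not show the level of a gene that is equal in both libraries. In bulk chromatin more cells of a type and more acetylation per cell cannot be told apart, and the part of enterocyte numbers or maturity in these counts was not tested.

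At Ncor1 itself (chr11:62129928-62272043, minus strand) there was no H3K9ac region of either direction within 50 kb of the gene, so these lists do not check the deletion. Of 6 members of the corepressor complex, Tbl1xr1 had a KO-higher promoter region (132 in KO, 83.0 in WT, fold 1.58). None of 18 writers, erasers and readers of lysine acetylation had a region of either direction. Over all genes 3.98% had a KO-higher and 7.51% a WT-higher region, and both lists are too short to tell their counts from those shares.

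The other acetylation mark moved with H3K9ac at part of the regions. Of KO-higher H3K9ac regions, 38.9% (36.7 to 41.1) shared at least 1 bp with a KO-higher H3K27ac region, 36.8% at promoters and 39.3% elsewhere. Of WT-higher H3K9ac regions, 19.5% (17.8 to 21.2) met WT-higher H3K27ac, 25.8% at promoters and 13.9% elsewhere. This WT-higher share was 29.6% at a -log10 q of 5 or more and 7.39% at a fold of 4 or more. The H3K27ac lists hold 7111 KO-higher and 2510 WT-higher regions, so both shares depend on list length. The H3K4me3 lists hold 131 KO-higher and 4166 WT-higher regions. KO-higher H3K4me3 was met by 42 KO-higher H3K9ac regions (2.23%), and WT-higher H3K4me3 by 423 WT-higher ones (19.7%, and 30.9% of those at promoters). With lists of such unlike length these shares do not show a lean of H3K4me3 to either direction. Lists of 3 other marks were used for the KO-higher and of 5 for the WT-higher direction, so shares over all marks cannot be set against each other. No other listed mark of the same direction was met at 60.5% of KO-higher regions and at 66.4% of WT-higher regions. The strongest KO-higher regions of that kind were at Larp4b, Nr1i2 (chr16:38292362-38292570, 116 in KO, 24.4 in WT), Abcc2, Cyp3a25 and Ifit3, and the strongest WT-higher ones at C530008M17Rik (19.9 in KO, 76 in WT), Foxc1 and 6530409C15Rik (18.1 and 71).

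The chromosomes shared the directions unevenly. On chromosome 19, which carries Scd1, Scd2, Abcc2 and the Ifit genes, 105 regions were KO-higher and 40 WT-higher, so that 72.4% (64.6 to 79.0) were KO-higher. On the X chromosome 12 were KO-higher and 37 WT-higher (24.5%, 14.6 to 38.1). The other chromosomes ranged from 34.2% (chromosome 2) to 55.8% (chromosome 16). Neither list held a region on chromosome 18, whereas every other autosome held regions of both directions. Why it is absent was not tested, so the lists do not show equal H3K9ac on that chromosome.

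RNA was available only through the authors' deposited table, which lists genes near WT-higher H3K4me1 regions, with the difference read as KO over WT. The labels do not state that sign, and with the opposite sign every higher count given here would be a lower one and the reverse, so that the direction of all RNA values rests on this reading. Of its 1243 genes, 73 (5.87%) were higher and 137 (11%) lower in KO at the authors' FDR under 0.05. Among 25 genes with a KO-higher H3K9ac promoter region, 20 (80%, 60.9 to 91.1) were higher in the authors' deposited table and 0 lower. Among 72 genes with KO-higher regions but none at the promoter, 26 (36.1%, 26 to 47.6) were higher and 3 lower. Of the 34 genes with 3 or more KO-higher regions 24 were higher (70.6%), and of the 50 with 1 region 16 (32%). Among 215 genes with WT-higher regions 58 (27%, 21.5 to 33.3) were lower in KO and 2 higher; with 2 or more regions 25 of 53 were lower, and with 1 region 33 of 162. Genes with neither direction were higher in 2.67% and lower in 8.13% of 935. These genes entered the table through H3K4me1, so the shares do not stand for all genes with H3K9ac regions.

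Among named genes with KO-higher H3K9ac, the authors' deposited table gave log2 differences of 2.83 for Abca1, 1.85 for Scd1, 1.72 for Scd2, 1.23 for Abcg5, 1.10 for Krt20, 1.04 for Lpcat3, 0.92 for Plin2, 0.72 for Muc13, 0.59 for Mttp and 0.55 for Efna1, with the authors' FDR between 8.6e-113 and 1.07e-07. It gave 0.06 for Fam108c (FDR 0.989) and 0.11 for Ugcg (FDR 0.561), which had 11 and 8 KO-higher regions. Grhl2 (-0.27), Thrb (-0.09), Gm11127 (0.30) and Scd3 (-3.02), also named for KO-higher H3K9ac, had no FDR under 0.05 either. Among those with WT-higher H3K9ac, the authors' deposited table gave -1.13 for Thsd4, -0.60 for Podxl and -0.37 for Ephb2, each with an FDR under 0.05. More of the named WT-higher genes in it had no FDR under 0.05. These were Barx1 (-2.98, FDR 0.194), Tmem181a (-0.49, FDR 0.116), Bend5 (-0.29, FDR 0.735), Fam125b (-0.17, FDR 0.949), Axin2 (-0.05, FDR 1) and Cck (0.14, FDR 0.795).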

How the data were processed

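H3K9ac, and 5 other histone marks for overlap, were measured by ChIP-seq in KO and WT jejunal epithelial cells, 1 H3K9ac library per genotype. The submitters' processing notes list mm9 and, as tools, HOMER 3.12, MACS2 2.1.1, Bowtie2 2.2.9 and CASAVA 1.8.2. The caller was MACS 2.0.10.20130419 per the file headers, which also record tags of 75 bp, where the labels give 50 cycles. Per the file headers, the authors called regions in each library with the other genotype's library as control, at a q cutoff of 0.05, keeping 1 tag per position, scaling the larger KO library to the smaller and using local windows of 1000 and 10000 bp. The deposited pileup signal is the tag height at the summit, the deposited fold is pileup over the local level of the other library after 1 was added to both, and the authors' -log10 p and -log10 q values come from the same caller.

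The other library's level was recovered from pileup and fold. Regions were assigned to the nearest protein-coding start of GENCODE M1 (mm9) within 50 kb, on chromosomes 1 to 17, 19 and X; 1 KO-higher and 3 WT-higher regions on unplaced contigs were left out of locations. Of 504 distinct listed genes 488 matched. Wilson intervals for shares and binomial intervals for medians cover counting error only, since tags are not replicates, and for the same reason no test was run. Scripts were tested on simulated data. Tools were Python 3.11.15, pandas 2.3.3, numpy 2.4.6, scipy 1.17.1, pysam 0.24.0 and matplotlib 3.10.9.

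The log2 differences and FDR values (adjusted p-values) for RNA are the authors' own, as deposited, in a table of genes near H3K4me1 regions. Its headings name WT against KO, and the sign was read as KO over WT from how HOMER names such columns, which the labels do not state. Its 12 columns of per-library values were not used, although a few were seen while its headings were read.

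The members, gene lists and tests were chosen with earlier results of these data known. Named genes were, per direction, those at the 10 strongest regions by -log10 p and the 10 strongest by fold, the 5 widest and the 5 with the highest pileup, the 5 genes with the most regions, up to 3 members per list and direction, and 5 genes with both directions; further genes were named after their values were seen. A few genes that these rules name are not reported here. Alternatives were stricter q, fold and rank limits, merging, other promoter and assignment rules, a limited GC range and a 50% overlap, and, added after the data were seen, leaving out the Vil1 and chromosome 17 stretches.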

Additional observations from a re-analysis of the deposited data

How the results depend on the processing

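With 1 library per genotype no value has a replicate check, and a level of a few scaled tags rests on few tags. No paired analysis was possible because each genotype has 1 H3K9ac library and no result comes from a test. The share of KO-higher regions was 65.2% at a -log10 q of at least 5, where the majority reversed, 43.4% after merging within 1 kb (1557 KO-higher and 2030 WT-higher regions) and 49.9% where GC content lay between the medians of both directions (855 and 858). At a fold of at least 4 the share was 45.5%. Taking 1000 regions per direction fixes that share, so it was not computed there.

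At a -log10 q of at least 5, KO-higher regions had a median width of 162 bp, pileup of 55.1 and fold of 3.35; WT-higher regions had a pileup of 43, a fold of 3.51, 510 genes and 29.6% meeting H3K27ac. At a fold of at least 4, KO-higher regions had a promoter share of 6.39%, a pileup of 32.5, a fold of 4.85, 242 genes and 34.6% meeting H3K27ac; WT-higher regions had 12.7%, a width of 156 bp, a pileup of 17, a fold of 4.85, 342 genes and 7.39%. In the 1000 regions of highest -log10 p, KO-higher regions had a width of 162 bp, a pileup of 56.9, a fold of 3.41 and 522 genes; WT-higher regions had 167 bp, 41, 3.30, 785 genes and 25.5% meeting H3K27ac. Merging gave a KO-higher width of 170 bp. In the limited GC range, KO-higher regions had a width of 162 bp, a pileup of 60.5, a fold of 2.61, 524 genes and 47.3% meeting H3K27ac; WT-higher regions had a promoter share of 26.5%, 167 bp, 26, 3.29, 651 genes and 16%. With promoters of 2.5 kb the promoter shares were 28.4% for KO-higher and 52.4% for WT-higher regions, and with 50% of a region covered 17.2% of WT-higher regions met H3K27ac. The causes were not tested.

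The promoter share was lower in KO-higher regions under all 7 alternatives and their pileup higher under all 6. The order of median widths held under 5 of 6 (not at a fold of at least 4), of median folds under 4 of 6 (not at a -log10 q of at least 5 or in the limited GC range), and of gene counts under 7 of 8 (not at a -log10 q of at least 5).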
